A study of Homo sapiens with 4 samples.

Results

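The 10 genes described here encode proteins of neural progenitors and neurons, and they were taken as a named set: NES, PAX6, FABP7, DCX, TUBB3, STMN2, GAP43, MAP2, NCAM1 and PNMA2. They are 10 of 19775 genes measured on single-colour oligonucleotide arrays in 4 established human germ cell tumour lines. TCam-2 is labelled as seminoma, NT2D1 as teratoma, GCT27 as embryonal carcinoma (embryocarcinoma) and GCT44 as a tumour of yolk sac type, and each untreated line was run on 1 array. TCam-2 was grown in RPMI and the other 3 in DMEM, both with serum, so medium and tumour type cannot be told apart in any contrast of TCam-2. Each tumour type is represented by a single line, NT2D1 was derived from a lung metastasis, and no difference below carries a replicate error. The series set seminoma against non-seminoma lines, and its DNA methylation arrays are not used here.

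In the developing nervous system, progenitors divide under transcription factors such as PAX6, carry the intermediate filament nestin and, as radial glia, the lipid carrier FABP7. Young neurons then assemble neuron-specific microtubules, extend a growth cone and migrate, with DCX, TUBB3, STMN2 and GAP43 as common markers of that stage, while MAP2 marks dendrites and NCAM1 mediates adhesion. NT2D1 cells are widely used as a pluripotent line that forms neurons after treatment with retinoic acid, so the label teratoma does not imply differentiated tissue. Germ cell tumours can hold neural tissue within teratoma.

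Values are array intensities on a linear scale. The floor was 76.4 units, the median of all values, below which levels were not ordered. Of the 10 genes, 9 exceeded the floor in NT2D1, 6 in GCT27, 5 in GCT44 and 4 in TCam-2. Among all probe sets, 50.3% exceeded it in NT2D1, 50.9% in GCT27, 49.7% in GCT44 and 49.2% in TCam-2. Each gene stands on its brightest probe set, so these shares and the counts are not like for like. STMN2 exceeded the floor in no line and PAX6 in NT2D1 alone, so 9 genes entered the comparisons. The 9 were chosen in part by being bright in at least 1 line, and their counts are given as descriptions. On a bulk array, fewer expressing cells and less RNA per cell cannot be told apart. Of the markers fixed for each label, SOX17, TFAP2C and PRAME were higher in TCam-2 while KIT and PRDM1 were not set apart. PRDM1 was highest in TCam-2 (2481 units) and KIT lowest there (1144 units). SOX2 was bright in both NT2D1 and GCT27, NANOG there and in TCam-2, and APOA2, APOA1 and FOXA2 were higher in GCT44. The yolk sac markers AFP (372 units) and GATA4 (104 units) were highest in GCT44 but short of the 4-fold rule below. DNMT3B was brightest in GCT27 (23760 units) and NT2D1 (11360 units), while LIN28A was bright in all 4 lines. The ACTB 3'/5' signal ratio was 4.21 on the GCT44 array and 2.49 to 2.97 on the others, and the part of this ratio in the results for GCT44 was not tested.

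**Figure D1:**
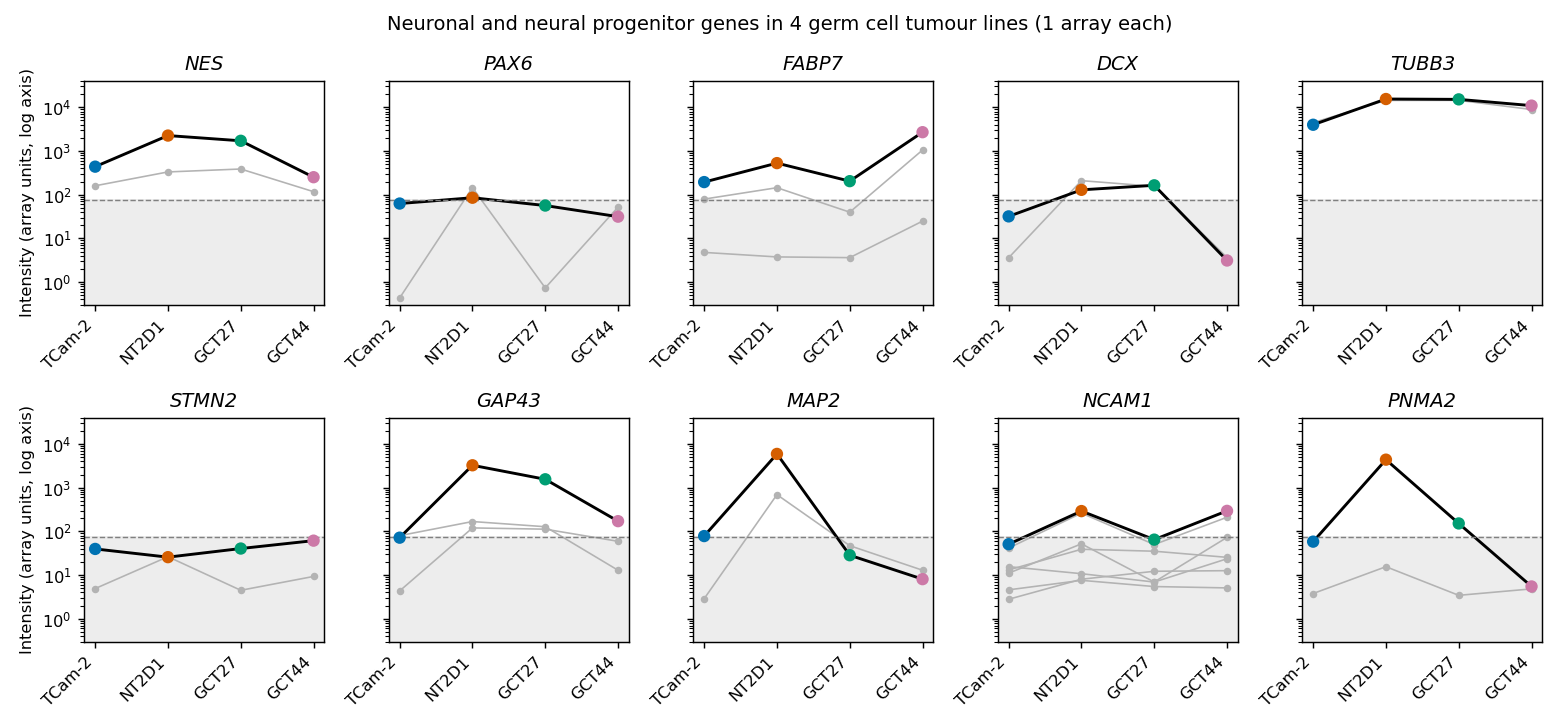
Intensity (array units, log axis) of each gene in the 4 lines, with 1 array per line. The black line with coloured points is the probe set used, grey lines are other probe sets of the gene, and the shaded area lies below the floor of 76.4 units. MAP2 and PNMA2 stand out in NT2D1, FABP7 peaks in GCT44, GAP43 and NES are high in NT2D1 and GCT27, and STMN2 stays in the shaded area.

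A line was said to stand apart for a gene (higher or lower) where its floored value was 4-fold or more, 2 on the log2 scale, beyond the closest of the 3 remaining lines. This is a criterion of size with no error rate. The members were chosen with earlier results of these data known. The shares of all genes given beside their counts are therefore descriptions and no test of the set. Of the 9 genes, 2 were called higher in NT2D1, MAP2 and PNMA2, against 0.523% of the 14926 genes compared. In GCT44, 1 was higher, FABP7, against 1.7% of all genes. None was called in TCam-2, where 1.49% of all genes were higher and 0.744% lower, and none in GCT27, where 0.603% were higher and 0.322% lower. No member was lower in NT2D1 or GCT44, against 0.241% and 1.69% of all genes. Several other members split the lines into pairs. In all, 5 of the 9 genes differed at least 4-fold between their highest and lowest line, against 20.5% of all genes. The median range was 8.97-fold for the 9 genes and 2.12-fold for all genes.

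The stretches of 250 bases before the annotated starts of the 4 widest-ranging genes with a sequence in the table are shown, because the series concerns silencing and CG pairs are the sites that DNA methylation marks. Sequences are from RefSeq (GRCh38.p14), read 5′ to 3′ on the gene's strand, with each CG pair in capitals. For MAP2 the first of 3 annotated starts is given.
MAP2 (chr2:209579082-209579331, plus strand): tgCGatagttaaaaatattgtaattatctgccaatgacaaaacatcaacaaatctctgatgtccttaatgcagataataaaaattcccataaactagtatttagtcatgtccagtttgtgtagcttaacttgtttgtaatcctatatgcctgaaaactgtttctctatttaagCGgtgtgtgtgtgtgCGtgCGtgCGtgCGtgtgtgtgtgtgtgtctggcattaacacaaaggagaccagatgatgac
GAP43 (chr3:115623260-115623509, plus strand): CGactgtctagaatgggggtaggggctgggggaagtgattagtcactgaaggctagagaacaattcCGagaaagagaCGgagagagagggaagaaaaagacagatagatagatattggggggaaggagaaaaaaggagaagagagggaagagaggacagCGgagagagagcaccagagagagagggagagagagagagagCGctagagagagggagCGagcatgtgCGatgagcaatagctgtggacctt
NES (chr1:156677408-156677657, minus strand): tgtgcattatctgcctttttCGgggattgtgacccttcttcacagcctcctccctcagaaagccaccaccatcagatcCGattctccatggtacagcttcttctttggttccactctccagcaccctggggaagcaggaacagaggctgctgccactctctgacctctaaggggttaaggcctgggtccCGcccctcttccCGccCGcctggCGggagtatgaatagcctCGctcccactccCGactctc
FABP7 (chr6:122779466-122779715, plus strand): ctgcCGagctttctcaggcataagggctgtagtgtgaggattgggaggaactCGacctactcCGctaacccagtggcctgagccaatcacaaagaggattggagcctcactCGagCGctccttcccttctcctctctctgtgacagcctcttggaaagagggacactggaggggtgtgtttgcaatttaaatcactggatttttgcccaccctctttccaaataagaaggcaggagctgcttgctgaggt
The windows hold 6 CG pairs for MAP2, 7 for GAP43, 8 for NES and 5 for FABP7. The median over 35116 such windows in the table is 11. All 4 windows are thus below the middle of the distribution, and 61.9%, 58.9%, 56.3% and 65.7% of all windows hold at least as many, in the order MAP2, GAP43, NES and FABP7. TUBB3 has a start whose window holds 39 CG pairs, a count that 2.65% of all windows reach, and another with 9.

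The same windows were searched on both strands for CATTGT (a SOX core), ATGCAAAT (the POU octamer), CAGCTG (an E-box) and the letters TTCAGCACC and GGACAGC, which lie in the left and right part of the RE1 element bound by REST. Of 20 windows of 7 members, 3 hold CATTGT, against 9.29% of all windows, and 1 holds GGACAGC, the GAP43 window, against 4.76%. The other letters were found in none of the 20, against 1.63% of all windows for ATGCAAAT, 14% for CAGCTG and 0.288% for TTCAGCACC. Several windows are alternative starts of the same gene, PAX6 has the most, and some of DCX overlap. The 20 windows are thus not independent. A match is only a match of letters.

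Among the progenitor genes, NES and FABP7 were detected in all 4 lines, with GCT44 the lowest line for NES and the highest for FABP7. NES encodes the intermediate filament nestin, which is typical of neural progenitors and also found in other immature cells. NES had 2259 units in NT2D1 and 1715 in GCT27, against 439 in TCam-2 and 252 in GCT44. The step between GCT27 and TCam-2 was 3.91-fold, the widest of the order, while NT2D1 and GCT27 were 1.32-fold apart. A second NES probe set had 332 units in NT2D1 and 388 in GCT27, against 160 in TCam-2 and 117 in GCT44. Both probe sets thus put the same pair of lines on top, with a smaller range of 3.30-fold in the second and the order of NT2D1 and GCT27 exchanged.

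FABP7 encodes the brain-type fatty acid binding protein of radial glia. FABP7 had 2699 units in GCT44, against 195 in TCam-2, 529 in NT2D1 and 204 in GCT27. GCT44 was 5.11-fold above NT2D1, and NT2D1 was 2.59-fold above GCT27. A second probe set read 1054 in GCT44, against 79.3 in TCam-2, 145 in NT2D1 and 39.8 in GCT27, and the remaining one lay below the floor in every line. The margin ranked 181 among 253 genes called higher in GCT44, so FABP7 was one of the narrower calls there. The related carrier FABP5 ran the other way, with 7.29 units in GCT44, below the floor, against 1879 in TCam-2, 7288 in NT2D1 and 22854 in GCT27. That is a difference of at least 24.6-fold on a single probe set, so failure of this probe set was not checked. FABP3, the heart-type carrier, was higher in NT2D1, at 1563 units against 133 in TCam-2, 271 in GCT27 and 338 in GCT44 (4.62-fold).

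PAX6, a paired-box transcription factor of eye and forebrain progenitors, was close to the floor. The probe set used had 85.3 units in NT2D1, and values below the floor in the other lines. Another probe set had 145 units in NT2D1 and was also below the floor elsewhere, at least 1.90-fold lower. SOX1, a marker of committed neural progenitors, lay below the floor in all 4 lines.

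The genes of young neurons did not move as 1 group. TUBB3 encodes the beta tubulin of neurons. In TCam-2, TUBB3 had 3993 units, against 10947 in GCT44, 15223 in GCT27 and 15501 in NT2D1. TCam-2 was the lowest line, by 2.74-fold, while the other 3 lines lay within 1.42-fold. Its second probe set had 4458 units in TCam-2 and 8918 to 14452 in the other lines. Both probe sets carry the suffix _x_at, which the manufacturer gives to sets whose probes also match other transcripts, so the signal of TUBB3 and of related tubulins cannot be told apart. Among the other beta tubulins, TUBB2A and TUBB2B had the same lowest line. TUBB2A had 2527 units in TCam-2, against 15087 to 25970 elsewhere (5.97-fold lower), and TUBB2B was 4.87-fold lower. The only TUBB2B probe set also carries the suffix _x_at, so the same limit holds for it. TUBB4A ran the other way, with 385 units in TCam-2, against 116 in GCT27 and values below the floor in NT2D1 and GCT44. TUBB6 was not lowest in TCam-2 either, with 6270 units in TCam-2, against 2464 in GCT44, 6210 in NT2D1 and 7008 in GCT27.

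GAP43, a growth cone protein of extending axons, had the widest gap among the members that put 2 lines above the other 2. GAP43 had 3264 units in NT2D1 and 1560 in GCT27, against 71.9 in TCam-2, below the floor, and 172 in GCT44. NT2D1 was 2.09-fold above GCT27, and GCT27 was 9.09-fold above GCT44. The other 2 probe sets gave values nearer the floor. One read 168 in NT2D1 and 128 in GCT27, against 79.9 in TCam-2 and 12.9 in GCT44, and the other 120 and 112, against 4.34 and 59.4 in that order. Both kept the same pair of lines on top, with floored ranges of at least 2.20-fold and at least 1.57-fold, so the size of the GAP43 difference was measured by 1 probe set alone.

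DCX, a microtubule-binding protein of migrating neurons, had the same pair of lines above the floor. DCX had 129 units in NT2D1 and 164 in GCT27, against 31.9 in TCam-2 and 3.12 in GCT44. Its second probe set had 210 and 156, against 3.60 and 3.64 in that order. The DCX paralogue DCLK1 was lowest in GCT44, at 26.0 units against 1062 in TCam-2, 3697 in GCT27 and 5656 in NT2D1, at least 13.9-fold lower. STMN2, a microtubule-destabilising protein of neurons, had 39.7 units in TCam-2, 61.4 in GCT44, 40.6 in GCT27 and 25.7 in NT2D1. All 4 values and those of its second probe set lay below the floor, so no difference in STMN2 was measurable. The broadly expressed paralogue STMN1 had 2067 units in TCam-2, against 2812 in GCT44, 3646 in GCT27 and 6925 in NT2D1.

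MAP2 and PNMA2 gave the widest margins of all 78 genes called higher in NT2D1, ranking 1 and 2. MAP2 stabilises dendritic microtubules. MAP2 had 5940 units in NT2D1, against 78.2 in TCam-2, 28.5 in GCT27 and 8.08 in GCT44. NT2D1 was 75.9-fold above TCam-2, which itself lay just above the floor, and at least 77.7-fold above GCT27 and GCT44. The second MAP2 probe set had 695 units in NT2D1 with all 3 other values under the floor, a difference of at least 9.09-fold. MAP1B, another structural microtubule protein of axons, was also highest in NT2D1, at 5476 units against 779 in TCam-2, 1575 in GCT27 and 1500 in GCT44, short of the size rule. MAPT, which encodes tau of axons, ranged narrowly, with 104 units in GCT44, 130 in NT2D1, 136 in TCam-2 and 163 in GCT27.

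PNMA2 is a neuronal antigen recognised by antibodies in paraneoplastic encephalitis, which can accompany testicular germ cell tumours. PNMA2 had 4389 units in NT2D1, against 58.3 in TCam-2, 152 in GCT27 and 5.49 in GCT44. NT2D1 was 28.8-fold above GCT27 and at least 57.4-fold above the other pair. Its second probe set lay below the floor in all lines, at 15.6 units in NT2D1 against 3.44 to 4.83 elsewhere, so no second measurement of PNMA2 was available. PNMA1, a relative in the same family, had 2277 units in NT2D1, against 4227 in TCam-2, 1606 in GCT27 and 5463 in GCT44. None of the 6 other family members compared was called in any line, where 0.241% to 1.7% of all genes were called by line and direction.

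NCAM1, the neural cell adhesion molecule, split the lines in another way. NCAM1 had 295 units in GCT44 and 292 in NT2D1, against 50.9 in TCam-2 and 64.8 in GCT27, both below the floor. The upper pair was at least 3.82-fold above the floor. A second probe set had 211 units in GCT44 and 262 in NT2D1, and the lower pair again lay below the floor, while the other 5 probe sets were below it in all lines. ST8SIA2 and ST8SIA4 encode the enzymes that attach polysialic acid to NCAM1. ST8SIA2 was higher in NT2D1, at 478 units with the other lines below the floor (at least 6.25-fold). ST8SIA4 was higher in GCT44, at 936 units against 134 in TCam-2 and values below the floor in NT2D1 and GCT27 (7.01-fold). The forebrain factors OTX2 and LHX2, singled out after their values were seen, were also bright in GCT44 and NT2D1. OTX2 had 9762 and 9043 units there, against 892 in TCam-2 and 750 in GCT27.

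Pair by pair, NT2D1 and GCT44 differed at the most members. NT2D1 was at least 4-fold higher than GCT44 for 4 of the 9 genes, GAP43, MAP2, NES and PNMA2 (4.76% of all genes), and lower for FABP7 (3.77%). TCam-2 was lower than NT2D1 for the same 4 genes (4.05% of all genes) and higher for none (4.21%). GCT27 was higher than GCT44 for GAP43 and NES (5.3%) and lower for FABP7 (4.15%). NT2D1 was higher than GCT27 for MAP2 and PNMA2 (2.09%) and lower for none (2.58%). TCam-2 was lower than GCT27 for GAP43 alone (3.79%), lower than GCT44 for FABP7 alone (4.38%), and higher than either for none (3.58% and 5.7%). These comparisons share arrays and are not independent.

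**Figure D2:**
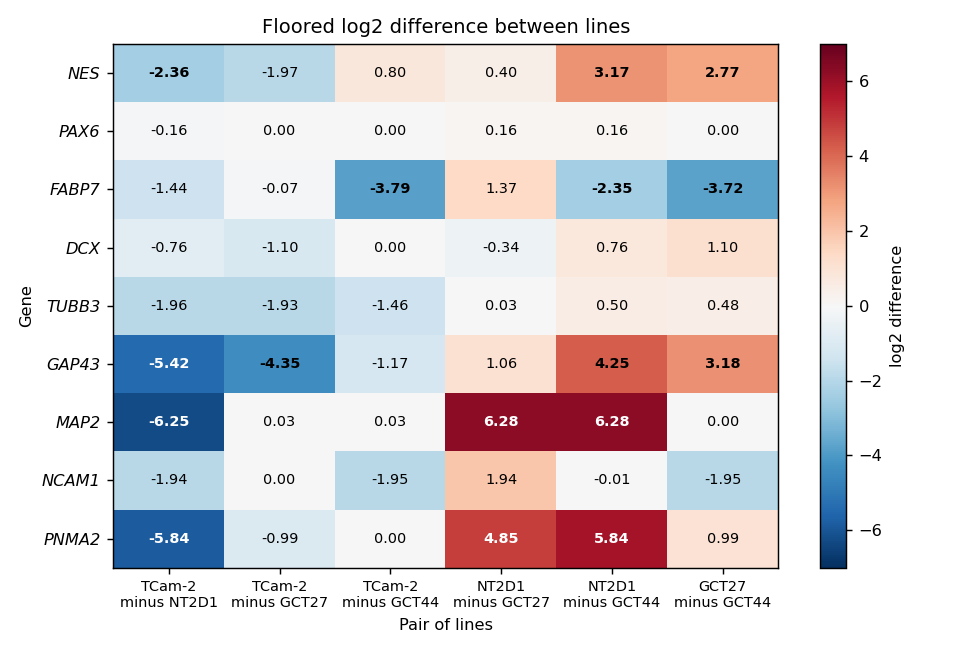
Floored log2 difference (first line minus second) of the 9 genes compared in the 6 pairs of lines, with differences of at least 2 in bold. The columns with NT2D1 hold the darkest cells, those of MAP2 at -6.25 and 6.28, and the only members lower in NT2D1 than in GCT44 are FABP7 at -2.35 and NCAM1 at -0.01.

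PAX6 passed the filter through NT2D1 alone, which fixed its place. Of the other 8 genes, none lay above the mean of the remaining lines in TCam-2, where 44.6% of all genes did, and 8 did so in NT2D1, where 47% of all genes did. The bright values in NT2D1 also helped these genes to pass the filter, so the counts are descriptions. Over all 9, the median difference from that mean was -1.77 in TCam-2, -0.62 in GCT44, -0.05 in GCT27 and 1.29 in NT2D1 on the log2 scale, with medians over all genes between -0.06 and -0.02. The contrast of TCam-2 against the 3 non-seminoma lines was also fitted with limma, whose spread comes from 3 lines of different tumour types and is assumed to hold for the lone line. No member passed an adjusted p of 0.05, and no gene of 14926 did, while 1 member and 903 genes had an unadjusted p under 0.05. That member was TUBB3, whose limma estimate was -1.78 on the log2 scale (SE 0.37, adjusted p of 0.578), and it was lower in TCam-2 than in 3 of 3 lines. GAP43 had the largest difference, -3.73 (SE 1.73), with an adjusted p of 0.875 in limma. These fits used values below the floor as they were.

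For each gene with a range of at least 4-fold, the 3 genes outside the set with the closest centred profile over the 4 lines were found. Closeness was the root mean square difference of floored log2 values. The members were left out of the search, so the likeness of MAP2 and PNMA2 to each other was not measured. For MAP2 these were RARRES2, which encodes the adipokine chemerin (0.73), PAPPA, a protease of IGF-binding proteins (0.75), and MYH6, a cardiac myosin heavy chain (0.78). The same 3 genes, in the same order, were closest to PNMA2, at 0.22, 0.45 and 0.61. RARRES2 had 3375 units in NT2D1, against 8.34 in TCam-2, 180 in GCT27 and 12.5 in GCT44. Closest to NES were DDX25, a helicase of male germ cells (0.10), the non-coding TOX-DT (0.10) and TMEM132B (0.23). Closest to FABP7 were the histone pseudogene H2BW4P (0.05), the homeobox gene MSX1 (0.10) and TRABD2B (0.12). MSX1 had 1220 units in GCT44, against 27.6 in TCam-2, 225 in NT2D1 and 36.0 in GCT27. Closest to GAP43 were the lysophosphatidic acid receptor LPAR4 (0.42), the BMP antagonist CHRDL1 (0.45) and FGFBP3 (0.46). With 4 lines, a close profile describes these arrays only.

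**Figure D3:**
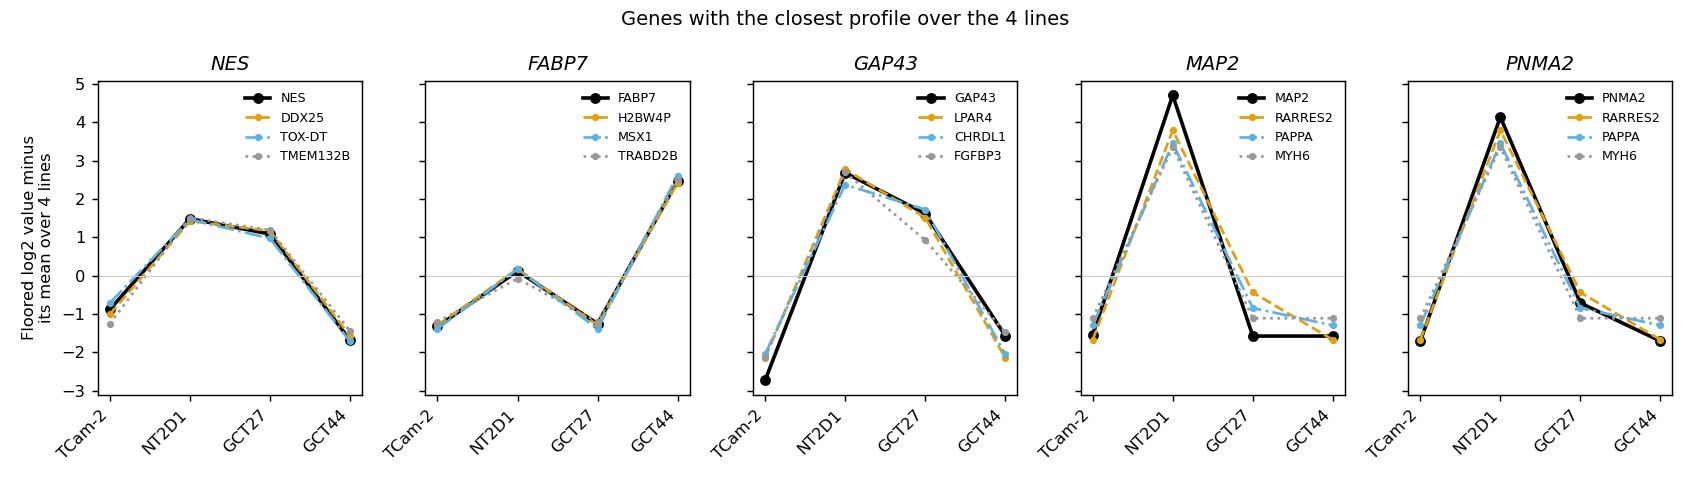
Floored log2 values, each profile centred on its own mean over the 4 lines. The 5 genes with at least a 4-fold range are in black, and the 3 genes outside the set closest to each are coloured. MAP2 and PNMA2 share the same 3 neighbours, whose peak in NT2D1 is lower than that of MAP2.

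Wider neural lists, also chosen with earlier results of these data known, were examined for the same lines. Over all of them, with the paralogue and REST lists included and each gene counted once, 112 genes were compared. Of these, 7 were higher and none lower in NT2D1, none higher and 6 lower in TCam-2, 1 higher and none lower in GCT27, and 3 higher and 6 lower in GCT44. As shares these were 6.25% higher in NT2D1, 5.36% lower in TCam-2, 0.893% higher in GCT27, and 2.68% higher and 5.36% lower in GCT44, to be read beside the shares of all genes given above. Of 15 neural progenitor transcription factors compared, 4 were higher in NT2D1 (0.523% of all genes), none was lower there (0.241%), and SOX2 was lower in GCT44 (1.69%). The 4 were SOX11 (1339 units, 6.16-fold), ZEB2 (1125 units, 4.84-fold), GLI3 (2629 units, 4.87-fold) and DLX5 (323 units, at least 4.22-fold), factors of neural, neural crest and limb development. The list median in NT2D1 was 2.08 above the mean of the other lines, against -0.03 for all genes. That median is the value of DLX5, which exceeded the floor in NT2D1 alone and so passed the filter through that line. The filter thus helped to set the median, which is a description. SOX2, a factor of pluripotent cells and neural progenitors, had 20575 units in NT2D1 and 18309 in GCT27, against 391 in TCam-2 and 6.41 in GCT44. NES and GAP43 were high in the same pair of lines.

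Of 16 genes of the neuronal cytoskeleton, none was called in NT2D1, where 0.523% of all genes were higher and 0.241% lower. The list median there was nevertheless 1.31, against -0.03 for all genes. In TCam-2, 2 were lower (0.744% of all genes), TUBB2A and TUBB2B, the latter on an _x_at probe set. In GCT44, 3 were lower (1.69% of all genes): TUBA1A (611 units, 30.7-fold), the neurofilament NEFL (at least 19.9-fold) and DCLK1. Of 13 growth cone genes, UCHL1, a neuronal deubiquitinase, was lower in TCam-2 (708 units, 7.23-fold), as were 0.744% of all genes. The GAP43-like protein BASP1 was lower in GCT44 (175 units, 10.8-fold), as were 1.69% of all genes. BASP1 differed from GAP43 in TCam-2, with 5715 units. DPYSL3, a growth cone protein singled out after its values were seen, had 3368 units in NT2D1 and 4692 in GCT27, against 97.5 in TCam-2 and 28.8 in GCT44. Of 12 adhesion genes, CHL1 (1038 units, at least 13.6-fold), N-cadherin CDH2 (21387 units, 6.36-fold) and ST8SIA4 were higher in GCT44 (1.7% of all genes). ST8SIA2 was higher in NT2D1 (0.523% of all genes). The axon guidance receptor ROBO1 was lower in TCam-2 (651 units, 4.99-fold), as were 0.744% of all genes.

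Of 20 genes of synapses and terminal neurons, 13 exceeded the floor in NT2D1, 13 in GCT27, 8 in GCT44 and 6 in TCam-2. Among all probe sets, 49.2% to 50.9% exceeded it on each array. Among the 15 compared, SYT1, a calcium sensor of synaptic vesicles, was higher in GCT27 (4103 units, 5.54-fold), as were 0.603% of all genes. GAD1, which makes GABA, was lower in TCam-2 (69.8 units, below the floor, at least 5.86-fold), as were 0.744% of all genes. The 5 neuron markers fixed for identity (RBFOX3, SYP, SNAP25, SYT1, MAPT) summed to 860 units in NT2D1, the line with the most MAP2, against 1027 in TCam-2, 4726 in GCT27 and 879 in GCT44. SYT1 alone gave 4103 of the units in GCT27 and 740 of those in TCam-2. The other 4 markers summed to 490 units in NT2D1, against 287 in TCam-2, 623 in GCT27 and 435 in GCT44. Of these 5 markers, 4 exceeded the floor in NT2D1, GCT27 and GCT44, and 3 in TCam-2, while SYP had 47.2 units in NT2D1, below the floor. Of 8 neuroendocrine genes, CPE was lower in TCam-2 (349 units, 7.50-fold), as were 0.744% of all genes. Of 10 glial genes, the glutamate transporter SLC1A2 was higher in NT2D1 (679 units, at least 8.88-fold), as were 0.523% of all genes. The astrocyte filament GFAP lay below the floor in all lines, and the 5 glia markers summed to 160 to 693 units. Only MBP and OLIG2 among these 5 markers exceeded the floor in any line. MBP gave 636 of the 693 units in TCam-2, and had 198 units in GCT27 and 106 in NT2D1. OLIG2 had 336 units in GCT27 and 184 in NT2D1. No glia marker exceeded the floor in GCT44. REST, the repressor of neuronal genes in other cells, had 2368 units in GCT44, 3053 in NT2D1, 5333 in TCam-2 and 5867 in GCT27. None of the 10 genes of its complex was called in any line. By line and direction, 0.241% to 1.7% of all genes were called, so few calls would be expected among 10 genes.

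**Figure D4:**
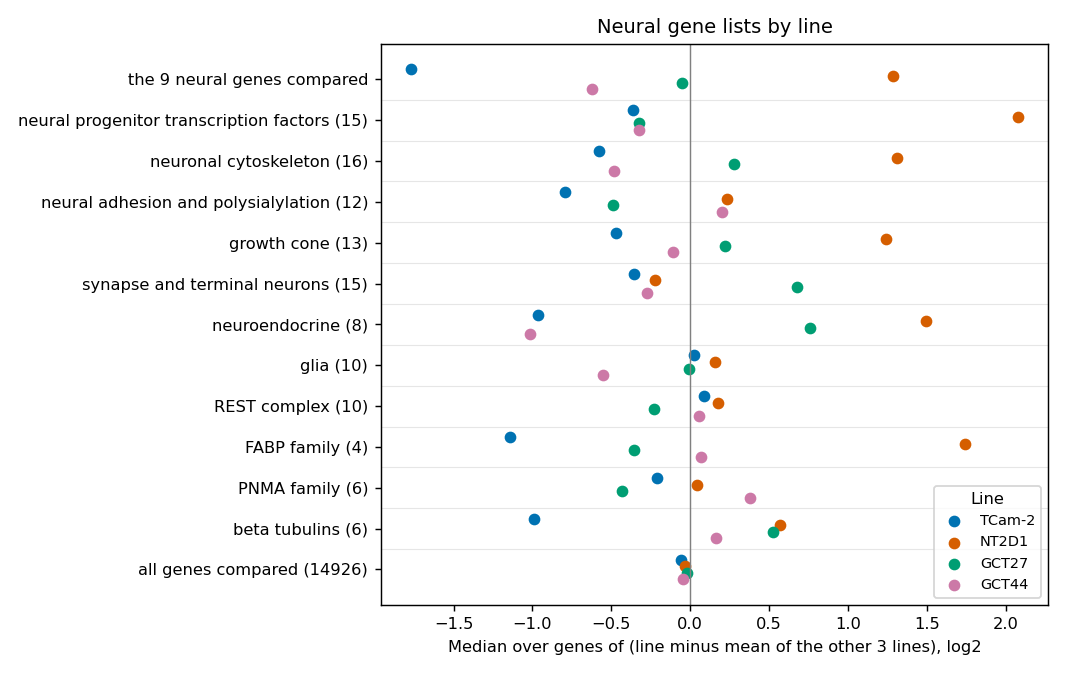
Median over the genes of each list of the floored log2 difference between a line and the mean of the other 3 lines. The number of genes compared is in brackets. Some genes passed the filter through a single bright line, so the medians are descriptions. NT2D1 lies farthest right for the transcription factor, cytoskeleton, growth cone and neuroendocrine lists, at 2.08, 1.31, 1.24 and 1.49. It is also farthest right for the FABP family (1.74), beta tubulins (0.57), adhesion (0.24), the REST complex (0.17) and glia (0.15). For synaptic genes NT2D1 is at -0.22 and GCT27 at 0.68, and for the PNMA family GCT44 is farthest right at 0.38.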

How the data were processed

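Total RNA of each line was labelled with biotin and hybridised to 1 array with 54675 probe sets. The deposited file gives 1 linear intensity per probe set and array. The submitters' processing notes name RMA, with no version, which usually gives log2 values, so log2 was taken here from the deposited intensities. The mean trimmed by 2% at each end was 500.1 on every array, while medians were 73.6 to 79.3 and highest values 41955 to 55282 units. The arrays thus share a trimmed mean but not 1 distribution, unlike values from RMA with its usual quantile normalization. The method that gave the deposited values is therefore uncertain. Precision is limited by the number of arrays, 1 per line.

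In the platform annotation 11777 probe sets had no entry, 1801 had several gene symbols and 41097 had 1. Among these 41097, the one with the highest mean log2 value stood for its gene, giving 19775 genes. The 14926 genes whose highest value reached the floor of 76.4 units were compared, and lower values were set to the floor. With the mean of linear values instead, DCX alone among the members changed probe set. The seminoma contrast was fitted with limma 3.58.1 (R 4.3.3) with an intensity trend on unfloored log2 values, leaving 2 residual degrees of freedom, and p-values were adjusted by Benjamini-Hochberg over 14926 genes. Both procedures were tested on simulated data.

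Named genes are the 10 members, the 4 widest calls per list, identity markers and paralogues (NCAM2 lay below the floor in all lines). Also named are the 3 closest profiles outside the set for each member ranging at least 4-fold. DLX5 and ROBO1 were added because they complete counts of 5 or fewer. MAP1B, REST, OTX2, LHX2, DPYSL3 and SOX1 were named after their values were seen. The members and lists were chosen with earlier results of these data known. POU5F1 is not analysed here. Alternatives covered the choice of probe set, the floor, the scaling, the threshold, the fit and leaving out lines. Python 3.11.15 was used.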

Additional observations from a re-analysis of the deposited data

How the results depend on the processing

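The calls of MAP2 and PNMA2 in NT2D1 and of FABP7 in GCT44 depend on 1 array each. No paired analysis was possible because each line has 1 array. With no floor, 3 members were called in GCT44 (FABP7 higher, DCX and PNMA2 lower), and 1057 among all genes. With the mean of the other lines in place of the nearest, 5 were called in GCT44, 3 in NT2D1 (GAP43 added), 3 in TCam-2 and 2 in GCT27, while the calls among all genes also grew, to 1074, 517, 842 and 580 in that order, against 505, 114, 333 and 138 with the nearest line. With a log2 margin of 1, 2 were called in TCam-2, where the calls among all genes were 1157. Leaving out 1 line gave 0 to 1 members in TCam-2, 2 to 4 in NT2D1, 0 to 1 in GCT27 and 1 to 3 in GCT44: GAP43 was called lower in TCam-2 without GCT44 and higher in GCT27 without NT2D1, NES and GAP43 were called higher in NT2D1 without GCT27, and lower in GCT44 without TCam-2. Fewer lines to exceed make such calls easier: among all genes, 584 were called in TCam-2 without GCT44, 387 in NT2D1 without GCT27, 392 in GCT27 without NT2D1 and 761 in GCT44 without TCam-2. For TCam-2 against GCT27, 0 members were 4-fold apart with the median over probe sets, 2 with no floor, with the floor at the unspiked controls (18.4 units) or with quantile normalization, and 3 when scaled to the spiked-in controls. For TCam-2 against GCT44 the count was 5 with no floor and 3 with the unspiked floor, and for GCT27 against GCT44 it was 6 with either. These extra calls use values below 76.4 units, where levels are not ordered, except those of NES and TUBB3 under other scalings. With the median over probe sets, the gap that sets NT2D1 and GCT27 above the other lines for GAP43 was 0.74 in place of 3.18 on the log2 scale, and that of NCAM1 was 0.00 in place of 1.94. Of 101 recomputed gaps over all alternatives, 100 kept their direction and NCAM1 was the exception. In limma, no member passed under any of the 6 alternatives, and 1 gene outside the set passed with the median over probe sets. The smallest member adjusted p ranged between 0.135 and 1 over them. The limma fits and the gaps that leave out a line, the second PAX6 probe set and the mean of linear values were chosen after seeing the data.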
